A study of Brassica rapa with 30 samples.

Results

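The first day of cold was examined in Chiifu, a Brassica rapa cultivar labelled late flowering. The comparison set 3 RNA sequencing libraries of plants given 1 day of cold (V1) against 3 libraries of plants given none (NV), 6 of the 30 libraries of the study. These were all the libraries that the labels assign to those groups, so no measured value chose them. Whole plants were sampled, raised for 3 weeks in a greenhouse before any cold. The study also sampled Chiifu after 20 days (V20) and 40 days (V40) of cold and after 40 days of cold with 10 days of warmth (V40T10), and took the same 5 groups of LP08, a cultivar labelled early flowering. No transgene, mutation or added agent is labelled in either cultivar. No source used here gives the temperature, the hour of sampling or the number of plants per library. No NV plants of the age of the V1 plants were among the samples, so 1 day of growth and 1 day of cold cannot be told apart. Whether the 3 libraries of a group stand for different plants is not labelled, so p-values measure a spread between libraries that may be technical.

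Plants meet cold on different time scales. Within hours, transcription factors of the CBF family are induced in Arabidopsis and activate genes for protective proteins and sugars, a response called cold acclimation. Exposure for weeks leads to vernalization, in which the floral repressor FLC is silenced and flowering becomes possible, and VIN3 is induced slowly along the way. A single day of cold falls within the acclimation response. Features are named here by the IDs of the deposited tables, because a table of RefSeq genes paired 1 of 42186 IDs with a name, and that gene had no count in any library. The names VIN3 and GIGANTEA, used below for 1 ID each, come from the list of topics prepared for this series and not from the deposited tables. Lists of cold response, clock and photosynthesis genes could not be matched to IDs, and markers of leaf, root or shoot tissue could not be checked.

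The 6 libraries held 18663200 to 22131635 counts on genes. Levels are given as CPM, the count of a gene scaled to a common library size, and 0 counts in a library allow a level of up to 0.136 to 0.161 CPM by counting error alone. The NV libraries differed from each other far more than the V1 libraries did. Measured as the SD, across genes, of log2 CPM about the group mean, the spread was 0.59, 0.56 and 0.71 in NV replicates 1, 2 and 3, against 0.25, 0.28 and 0.32 in V1, and 0.19 to 0.38 in the libraries of the other groups. NV replicate 3 stood farthest apart. Across the 25441 genes tested, its log2 levels correlated with those of the other NV libraries at r = 0.881 and 0.887, while NV replicates 1 and 2 correlated at 0.935 and the V1 libraries at 0.977 to 0.988. Against the V1 libraries, NV replicate 3 gave r = 0.787 to 0.793 and NV replicates 1 and 2 gave 0.849 to 0.873. These correlations are across genes, which are not independent replicates. Results are given with and without NV replicate 3 where they rest on it.

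**Figure D1:**
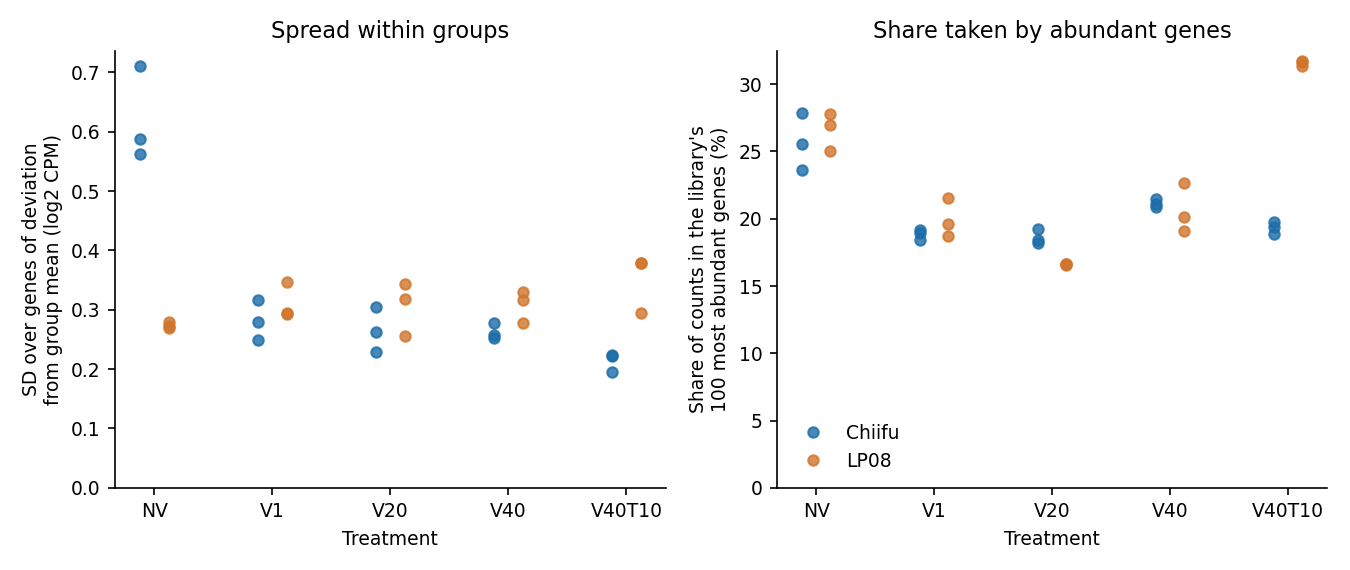
Spread within groups (left, SD over genes of the log2 deviation from the group mean) and share of counts on the 100 most abundant genes (right, in percent) at the 5 treatments in Chiifu and LP08, with 1 point per library. The Chiifu NV libraries deviated from their group mean by an SD of 0.56 to 0.71 log2 units, above every V1 library at 0.25 to 0.32, and in both cultivars the 100 most abundant genes took a smaller share of the counts at V1 than at NV.

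The spread of the NV libraries was seen gene by gene. Among 13784 genes that averaged 10 CPM or more over the 6 libraries, the highest NV library exceeded the lowest by a median of 1.72 times, with 0.5 CPM added to each value, and at V1 this ratio was 1.18. The NV libraries spanned 4-fold or more in 877 of these genes (6.36%), and the V1 libraries in 63 (0.457%). NV replicate 3 was the library farthest from the other NV values in 605 of the 877 genes (69.0%), as the lowest library in 470 and the highest in 135.

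After 1 day of cold, 6780 of 25441 genes differed from NV (26.6%), 3031 of them higher (11.9%) and 3749 lower (14.7%), by edgeR's quasi-likelihood test with Benjamini-Hochberg adjusted p below 0.05. The median change was 1.42 log2 units among the genes that rose and -1.57 among those that fell, and -0.06 over all genes tested. A change of 2-fold or more was found in 2336 genes that rose and 3126 that fell, and of 8-fold or more in 317 and 449. Falls thus outnumbered rises at these sizes, and the order turned among the greatest changes, where 98 genes rose and 67 fell by 32-fold or more. Among the 22630 genes with at least 10 counts in each of the 6 libraries, where a fitted fold does not rest on values near 0, 18 rose and 8 fell by 32-fold or more, and 7 rose and 0 fell by 64-fold or more. The V1 and NV libraries did not overlap in 12818 genes (50.4%, and 61.8% in the same comparison of LP08), so a gap between the groups was common among genes that the test did not call.

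The count of calls changed with the library left out. Without NV replicate 3, 11105 genes were called, 5519 higher and 5586 lower, and the lead of falls over rises was nearly gone. Without V1 replicate 1, 2 or 3 the count fell to 2570, 2852 and 3107, with higher and lower genes at nearly even shares. Of these, 2545, 2828 and 3058 were among the 6780. Without NV replicate 1 or 2 the count was 6860 and 5745. A set of 2375 genes (9.34% of those tested), 1220 higher and 1155 lower, was called with each of the 6 libraries left out in turn. When the spread was estimated from all 30 libraries, 14401 genes were called, but that estimate is drawn mostly from groups with a narrower spread than NV. The reported test also shares a gene's spread between NV and the narrower V1. With limma voom and weights per group, 6267 genes were called, and 5752 of the 6780 were kept.

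**Figure D2:**
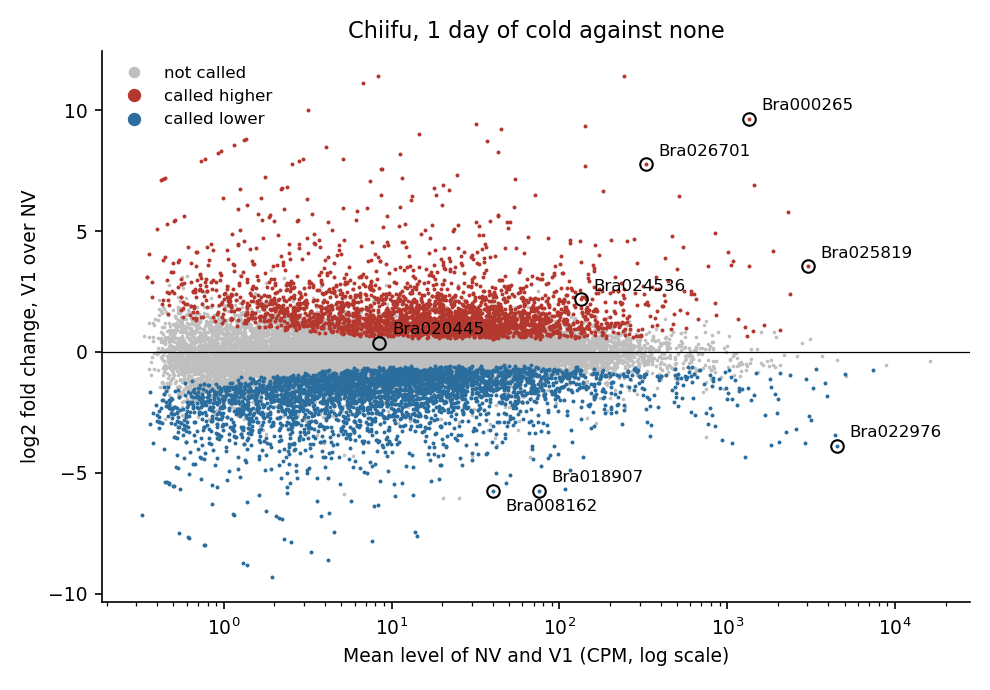
Change of each tested gene in Chiifu, V1 over NV in log2 units, against its mean level in CPM on a log axis, with 1 point per gene. Genes called higher (3031) and lower (3749) are coloured, and 8 named features are circled. Called genes lay at all levels, with falls more frequent than rises below 10 CPM.

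Among the called genes with at least 10 counts in every library, those with the greatest rises were Bra000265 and Bra026701. Bra000265 was measured at 2.01, 4.56 and 3.51 CPM in NV and at 2631, 2926 and 2507 CPM at V1. Its transcript went from a low level to a high one, a log2 change of 9.64 ± 0.43 (SE, adjusted p = 0.000183, edgeR). Bra026701 was measured at 3.25, 1.98 and 3.76 CPM in NV and at 586, 668 and 700 CPM at V1, a log2 change of 7.76 ± 0.35 (SE, adjusted p = 0.000183, edgeR). In both features every V1 library lay more than 100-fold above every NV library. Both stayed high in long cold and returned in warmth, since Bra000265 averaged 1257 CPM at V20, 1564 CPM at V40 and 1.61 CPM at V40T10, and Bra026701 averaged 349 CPM, 306 CPM and 0.872 CPM. What these genes encode is not annotated in the sources used here.

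Under the same limit of 10 counts in every library, the greatest falls were those of Bra018907 and Bra008162. Bra018907 was measured at 104, 108 and 233 CPM in NV and at 2.67, 2.90 and 2.80 CPM at V1, a log2 change of -5.74 ± 0.42 (SE, adjusted p = 0.000492, edgeR). NV replicate 3 was the high library, and without it the log2 change was -5.22. Bra008162 was measured at 86.1, 65.3 and 85.0 CPM in NV and at 0.951, 2.72 and 0.772 CPM at V1, a log2 change of -5.73 ± 0.53 (SE, adjusted p = 0.0010, edgeR). Here V1 replicate 2 was the high library of its group, and without it the log2 change was -6.50. Both features were higher in long cold than at V1 and higher still after warmth, with Bra018907 at 10.5 CPM at V20, 21.8 CPM at V40 and 98.4 CPM at V40T10, and Bra008162 at 8.74 CPM, 14.9 CPM and 97.0 CPM.

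Measured in CPM rather than in folds, the greatest rise was that of Bra025819 and the greatest fall that of Bra022976. Bra025819 was measured at 360, 335 and 728 CPM in NV and at 5179, 5976 and 5635 CPM at V1, a log2 change of 3.55 ± 0.37 (SE, adjusted p = 0.00138, edgeR). It averaged 1540 CPM at V20 and 1302 CPM at V40, well under its V1 level, and 323 CPM at V40T10. Bra022976 was measured at 7997, 6194 and 11178 CPM in NV and at 626, 561 and 555 CPM at V1, a log2 change of -3.87 ± 0.29 (SE, adjusted p = 0.000527, edgeR). It averaged 1164 CPM at V20, 1552 CPM at V40 and 4065 CPM at V40T10, so its level after warmth was under that of every NV library. NV replicate 3 was the high library of its group for both features, and the log2 changes of these 6 features kept their direction and their call in each of the 13 alternatives run.

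**Figure D3:**
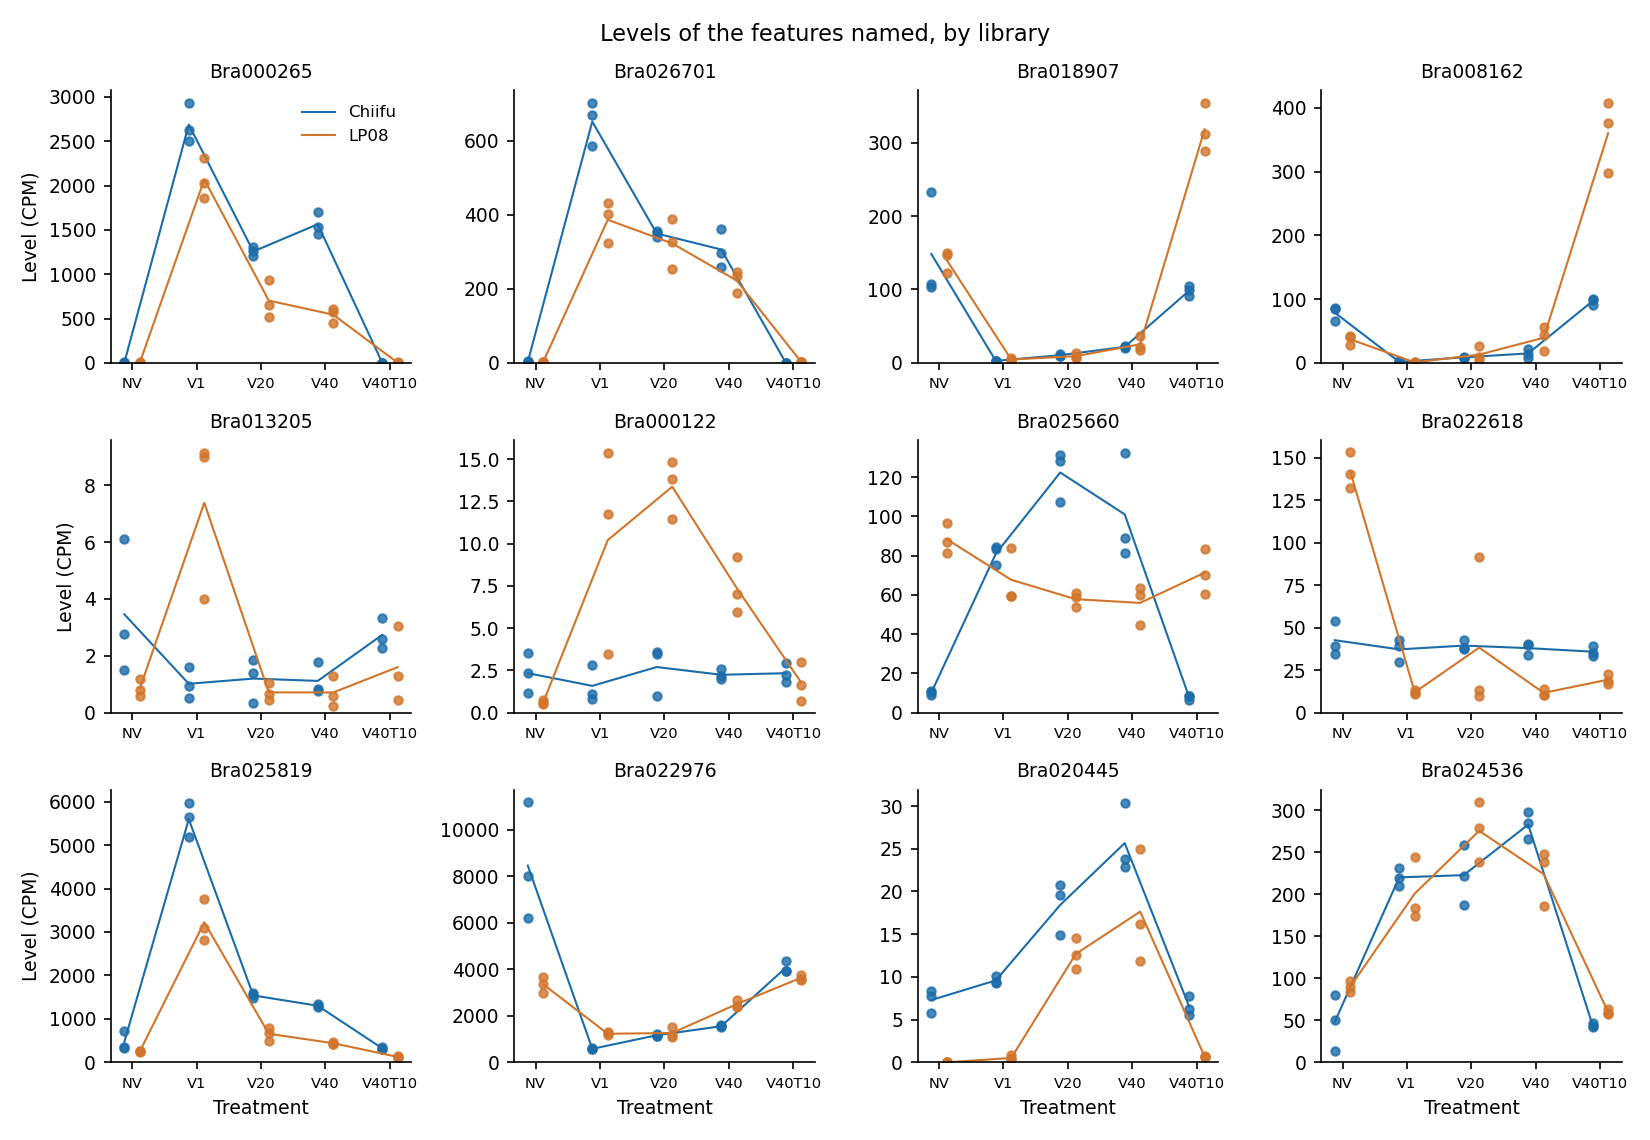
Levels in CPM, on linear axes that start at 0, of the 12 named features at the 5 treatments in Chiifu and LP08, with 1 point per library and lines joining the group means. In Chiifu, Bra000265 and Bra026701 lay high at V1, V20 and V40 and low at NV and V40T10, Bra018907 and Bra008162 lay lowest at V1, and Bra020445 (VIN3) changed little at V1 and was higher at V20 and V40.

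GIGANTEA, Bra024536, encodes in Arabidopsis a clock-associated protein that promotes flowering in long days and whose transcript cycles over the day. It was measured at 80.3, 50.2 and 14.0 CPM in NV and at 210, 231 and 220 CPM at V1. All V1 libraries lay within a narrow range above the NV libraries, which spanned 5.75 times and had replicate 3 as the lowest. Its log2 change was 2.19 ± 0.56 (SE, adjusted p = 0.0269, edgeR). Without NV replicate 3 it was 1.78 (adjusted p = 0.00166) and without NV replicate 1 it was 2.78 (adjusted p = 0.0162). The call was lost without NV replicate 2 (adjusted p = 0.0655) and without V1 replicate 1, 2 or 3 (adjusted p = 0.0824, 0.0841 and 0.0799), at log2 changes of 2.17 to 2.24. GIGANTEA averaged 223 CPM at V20, 283 CPM at V40 and 44.1 CPM at V40T10.

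VIN3, Bra020445, is a copy of the Arabidopsis gene for a PHD-finger protein that is induced by weeks of cold and takes part in the silencing of FLC. It was measured at 8.33, 7.74 and 5.81 CPM in NV and at 9.46, 10.1 and 9.27 CPM at V1. The groups did not overlap, as in 25.2% of all tested genes with V1 higher, but the log2 change of 0.39 ± 0.21 (SE) was not called (adjusted p = 0.217, edgeR). Its mean level was 18.4 CPM at V20, 25.7 CPM at V40 and 6.52 CPM at V40T10.

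The balance of rises and falls differed between bands of mean level over the 6 libraries. From 1 to 10 CPM, 931 genes rose and 1735 fell of 10016 tested, with a median change of -0.21 log2 units. From 10 to 100 CPM, 1702 rose and 1479 fell of 11956, with a median of 0.06. Below 1 CPM, 113 rose and 269 fell of 1641, with a median of -0.35. At 100 CPM and above, 285 rose and 266 fell of 1828, with a median of -0.02. Leaving out NV replicate 3 turned the median of this last band to 0.18, with 622 genes higher and 339 lower, while the medians of the other bands kept their sign. Without that library, 3309 genes were higher and 2406 lower from 10 to 100 CPM, 1421 and 2381 from 1 to 10 CPM, and 167 and 460 below 1 CPM. Without NV replicate 1, 121 were higher and 434 lower below 1 CPM.

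The most abundant transcripts took a smaller part of the RNA after a day of cold. The 100 genes with most counts in a library held 23.6, 25.6 and 27.9% of its counts in NV and 18.4, 18.9 and 19.2% at V1. The means were 25.7 ± 2.12% in NV and 18.8 ± 0.364% at V1 (SD, n = 3 each), with no overlap (exact permutation test, two-sided p = 0.1, the smallest that 3 against 3 libraries allow). In LP08 the shares were 26.6 ± 1.41% and 20.0 ± 1.47% (SD, n = 3 each, exact permutation p = 0.1). To follow fixed genes, the 100 genes highest in LP08, whose libraries do not enter the Chiifu comparison, were read in Chiifu, and the result depended on the LP08 group that chose them. Of the 100 highest in LP08 NV, 46 were called lower and 4 higher in Chiifu, with a median change of -0.72 log2 units. A choice by the level before cold favours genes that are lower after it, so these values are a description. Of the 100 highest in LP08 V1, 23 were called lower and 25 higher, with a median of -0.23, and of the 100 highest over LP08 NV and V1, 38 and 12, with a median of -0.56. Of all genes tested in Chiifu, 14.7% were called lower and 11.9% higher. Of those at 100 CPM and above, 14.6% were called lower and 15.6% higher. Counts on the genes highest over both groups came to 21.3, 24.9 and 28.3% of the TMM-scaled library size in Chiifu NV. At V1 they came to 15.4, 16.8 and 17.1%. The scaled size differs from the total counts of a library, so these values are not shares of counts like those above. The 100 most abundant genes of Chiifu NV and of Chiifu V1 had 55 genes in common.

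Slightly fewer genes had counts at V1. At least 1 count was found for 29763, 29899 and 30437 genes in the NV libraries and for 29422, 29486 and 29595 at V1, with no overlap (exact permutation test, two-sided p = 0.1, the smallest possible). In LP08 the corresponding ranges overlapped, with 29509 to 29630 and 29308 to 29542 genes (exact permutation p = 0.5).

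Some genes were near 0 in one group and clearly counted in the other. A set of 51 genes had at most 3 counts in each NV library and a mean of at least 1 CPM at V1, and in 41 of them every V1 library reached 1 CPM. Of the 51, 48 were called and 3 were not tested because of low counts. The reverse set held 145 genes, but in only 21 of these did every NV library reach 1 CPM. More than 2 in 3 of the NV counts came from replicate 2 in 31 genes of the reverse set, from replicate 3 in 19 and from replicate 1 in 1. Of the 145, 55 were called and 90 were not tested. The genes that appeared at V1 were thus seen in most of its libraries, while many of those that vanished had been counted mainly in a single NV library. With exactly 0 counts required in the silent group, the sets held 12 and 50 genes. Since these genes were chosen by the levels compared, their calls are a description. They cannot be weighed against the 26.6% called among all genes tested.

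Rows whose IDs begin with ENSRNA form a separate class in the tables. Of 1168 such rows, 54 had enough counts to be tested. At V1, 8 were higher and 10 lower (33.3% called), near the 26.6% of all genes tested, with a median change of -0.51 log2 units and a median level of 1.04 CPM. They took 0.0634, 0.0729 and 0.207% of the counts in NV, where replicate 3 was the high library, and 0.0445 to 0.120% at V1.

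The later Chiifu groups show what level the first-day genes had afterwards. They were compared by level only, since folds against NV would share the NV libraries. The 3031 genes called higher had a median of 9.0 CPM in NV and 25.7 CPM at V1, then 17.4 CPM at V20, 16 CPM at V40 and 10.0 CPM at V40T10. The 3749 genes called lower had a median of 13.1 CPM in NV and 4.11 CPM at V1, then 6.48 CPM at V20, 6.93 CPM at V40 and 12.1 CPM at V40T10. Both medians were thus nearer to NV after weeks of cold than after 1 day, and nearest after the return to warmth. Over all genes tested the median stayed between 10.9 and 11.8 CPM in the 5 groups. A return towards the middle is in part built in, since the genes were chosen for their distance between NV and V1.

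In LP08, 13225 of 25158 genes differed between V1 and NV (52.6%), 6747 higher and 6478 lower, from 6 libraries that the Chiifu comparison does not use. Which cultivar had more calls depended on the source of the spread. With the spread of all 30 libraries, 12127 of 28712 genes were called in LP08 and 14401 in Chiifu. The counts of calls therefore do not rank the cultivars by the extent of their response. Of the 3031 genes that rose in Chiifu, 2472 also rose in LP08. They were 81.6% of the Chiifu list, beside 26.8% of all genes tested that rose in LP08. They were 36.6% of the LP08 list, beside 11.9% of all genes tested that rose in Chiifu. Of the 3749 that fell in Chiifu, 2644 also fell in LP08. These made 70.5% of the Chiifu list, beside 25.7% of all genes tested in LP08, and 40.8% of the LP08 list, beside 14.7% in Chiifu. Opposite calls were made for 81 genes, 24 higher in Chiifu and lower in LP08 and 57 the reverse. The genes called higher in Chiifu had a median change of 1.39 log2 units there and 1.14 in LP08, and those called lower had -1.52 and -0.97, over the genes tested in both. The Chiifu medians are those of genes chosen by their Chiifu values, so their greater size is not a result. Without Chiifu NV replicate 3, 4082 genes rose and 3718 fell in both cultivars and 158 had opposite calls. Without Chiifu V1 replicate 1, 2 or 3, shared rises were 1149, 1243 and 1403 and shared falls were 1025, 1151 and 1175, with 16, 20 and 31 opposite calls. Without Chiifu NV replicate 1, opposite calls were 136.

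The 4 features named above for their log2 rise or fall in Chiifu changed in the same direction in LP08, as did the 2 named for their change in CPM. Bra000265 changed by 9.28 ± 0.32 log2 units there and Bra026701 by 6.98 ± 0.20 (SE). Bra018907 changed by -4.92 ± 0.24 and Bra008162 by -5.53 ± 0.27. Bra025819 changed by 3.70 ± 0.18, and Bra022976 is described below. For these 4 features and Bra025819 the difference between the cultivars did not pass the test (edgeR interaction, adjusted p from 0.229 to 0.936). This does not show that the responses were equal. GIGANTEA rose by 1.18 ± 0.15 log2 units in LP08, from 83.8, 90.1 and 96.3 CPM in NV to 175, 184 and 244 CPM at V1. Its difference between the cultivars, LP08 minus Chiifu, was -1.03 ± 0.60 and did not pass the test (edgeR adjusted p = 0.429).

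A difference of response between the cultivars was called for 635 of 27079 genes (2.34%) by an interaction term over 12 libraries. The change was the more positive in LP08 for 401 of them (1.48%) and the more positive in Chiifu for 234 (0.864%). Among the 401, 131 rose in LP08 and were not called in Chiifu, 84 fell in Chiifu and were not called in LP08, 80 fell in both and 52 fell in Chiifu and rose in LP08. Among the 234, 77 rose in both, 60 rose in Chiifu and were not called in LP08, 57 fell in LP08 and were not called in Chiifu, and 23 rose in Chiifu and fell in LP08. The interaction test shares a gene's spread among its groups, although Chiifu NV was wider than the others. With limma voom and weights per group, 343 genes were called, and 295 of the 635 were kept. The interaction count moved with single libraries in both directions. It was 1698 without Chiifu NV replicate 1, with 1058 changes more positive in LP08 and 640 in Chiifu. Without Chiifu NV replicate 3 it was 1526, with 805 more positive in LP08 and 721 in Chiifu. The lead of changes more positive in LP08 was thus nearly gone without that library. The interaction count was 185, 231 and 373 without Chiifu V1 replicate 1, 2 or 3, and 275, 242 and 226 without LP08 NV replicate 1, 2 or 3. Without LP08 V1 replicate 2 or 3 it was 248 and 249.

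**Figure D4:**
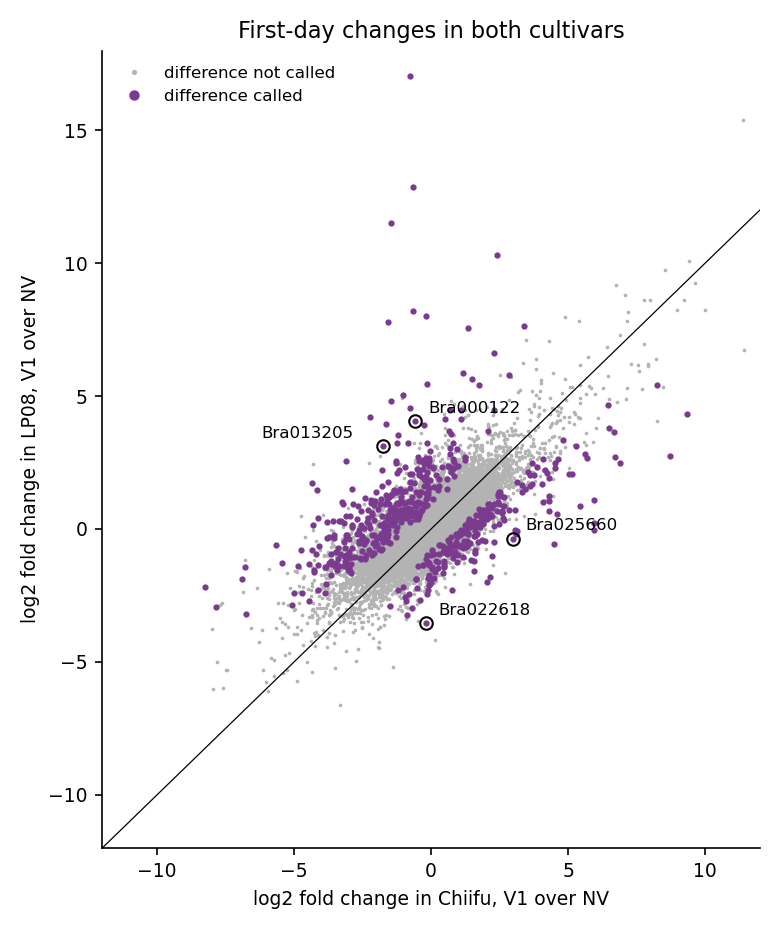
Change after 1 day of cold in LP08 against that in Chiifu, both V1 over NV in log2 units, with 1 point per gene tested in both and the line of equal change. The 635 genes called for a difference lie off the line where they are tested in both cultivars, and the 4 features with the greatest differences at sufficient counts are circled.

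Bra025660 rose in Chiifu to about the level that LP08 had before cold. It was measured at 9.05, 11 and 10.3 CPM in Chiifu NV and at 84.3, 75.2 and 83.3 CPM at V1, and at 81.4, 87.0 and 96.6 CPM in LP08 NV and 84.0, 59.5 and 59.5 CPM at V1. Its difference of response was -3.38 ± 0.24 log2 units (SE, adjusted p = 8.35e-05, edgeR). Bra022618 showed the other form, with 34.6, 39.3 and 54.0 CPM in Chiifu NV and 42.8, 39.2 and 29.7 CPM at V1, against 140, 153 and 133 CPM in LP08 NV and 10.9, 11.5 and 13.5 CPM at V1. Its difference was -3.37 ± 0.28 (SE, adjusted p = 0.000354, edgeR). In Chiifu its libraries overlapped and its log2 change of -0.20 was not called, and became 0.033 without NV replicate 3.

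Among the genes with at least 10 counts in each of the 12 libraries, those with the greatest called differences towards LP08, Bra013205 and Bra000122, were of low level. Bra013205 was measured at 1.48, 2.76 and 6.12 CPM in Chiifu NV and at 0.951, 0.498 and 1.59 CPM at V1, and rose in LP08 from 0.576, 0.788 and 1.18 CPM to 4.01, 9.14 and 9.0 CPM. Its difference was 4.87 ± 0.80 log2 units (SE, adjusted p = 0.0108, edgeR), and 4.16 without Chiifu NV replicate 3, the high library of its group. Bra000122 was measured at 1.15, 3.50 and 2.36 CPM in Chiifu NV and at 0.815, 1.09 and 2.85 CPM at V1, and rose in LP08 from 0.733, 0.525 and 0.589 CPM to 3.48, 11.8 and 15.4 CPM. Its difference was 4.62 ± 0.88 (SE, adjusted p = 0.0204, edgeR), and the call was lost without Chiifu V1 replicate 1 or 2 (adjusted p = 0.0667 and 0.0666), any LP08 NV replicate (0.0561, 0.0715 and 0.0704) or LP08 V1 replicate 2 or 3 (0.0543 and 0.0580), and with limma voom in place of edgeR (0.162).

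Of the features named for Chiifu alone, a difference of response was also called for Bra022976 and VIN3. Bra022976 fell in LP08 from 3389, 3674 and 2990 CPM to 1285, 1242 and 1156 CPM, so LP08 began under all Chiifu NV libraries and ended above all Chiifu V1 libraries. Its difference was 2.42 ± 0.29 log2 units (SE, adjusted p = 0.00255, edgeR). Values of this difference under the alternatives are not given here. Without Chiifu NV replicate 3, the high library of its group, the Chiifu change of Bra022976 was -3.59 log2 units. VIN3 had 0 counts in the 3 LP08 NV libraries, which allows up to 0.135 to 0.138 CPM, and 0.826, 0.336 and 0.381 CPM at V1, against 5.81 to 8.33 CPM in Chiifu NV. Its difference was called (adjusted p = 0.0138, edgeR), but no fold is given because it would rest on libraries at 0.

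**Figure D5:**
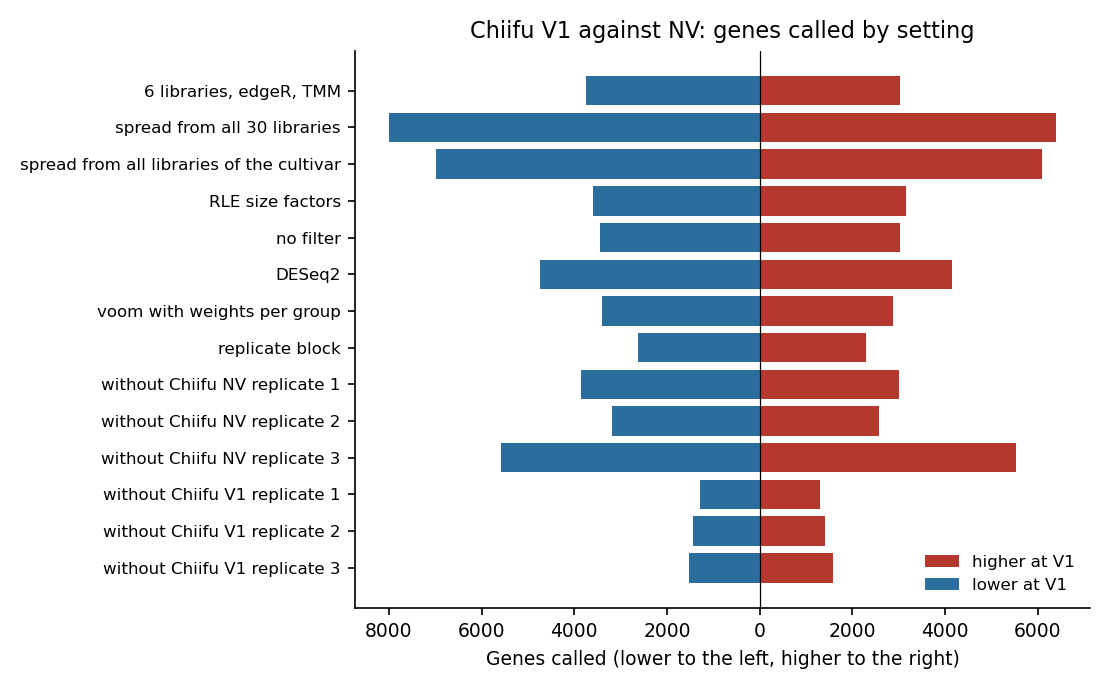
Number of genes called higher and lower in Chiifu, V1 against NV, under the reported test and 13 alternatives. Bars start at 0, with lower genes to the left and higher genes to the right. The total ranged from 2570 without V1 replicate 1 to 14401 with the spread taken from all 30 libraries.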

How the data were processed

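Per the labels' protocols, column-purified, DNase-treated total RNA was made into TruSeq stranded mRNA libraries and read on a NovaSeq instrument. FastQC, TopHat2, HTSeq and edgeR are listed, without versions, in the submitters' processing notes. Genome build and strand setting: not given in the sources used here. Whole-number counts per gene were deposited by the authors without normalization. Reads on no gene (6.91 to 10.7% in the 6 libraries), at several places (2.75 to 4.51%) or ambiguous (0.0242 to 0.0399%) were left out of library sizes. Copies with near-identical sequence, overlapping genes and antisense genes are therefore uncertain.

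The tests used edgeR 4.0.16 under R 4.3.3 (TMM, filterByExpr, quasi-likelihood F test, Benjamini-Hochberg over all genes tested, adjusted p below 0.05). Only the libraries compared entered each fit, because Chiifu NV had a wider spread than other groups. This limited the pooling of unlike spreads but did not remove it. Each fit shared a gene's spread among its groups, so Chiifu NV was still pooled with narrower groups, in the interaction as well. Only limma voom was run with weights per group. SEs were taken from the F statistic. CPM used TMM-scaled library sizes over all 30 libraries, and log2 CPM a prior count of 2. No libraries were duplicates (chi-square per degree of freedom 7.31 to 127 within the Chiifu groups). The scripts were tested on simulated data. Limits from 0 counts use 3 counts over the unscaled total of gene counts and cover counting error only.

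Features were named by rule: per direction, the 2 with the greatest change among called genes with libraries that do not overlap, at least 10 counts in each library and 5 CPM in 1 group; the 2 with the greatest called difference between cultivars (at least 10 counts in all 12 libraries); the greatest change in CPM; and VIN3 and GIGANTEA. The members and lists were chosen with earlier results of these data known, and the descriptions by level, of abundant genes and of ranges within groups were added after the counts of calls were seen. Names were sought in RefSeq genes of CAAS_Brap_v3.01; other flowering genes are not reported, as no source used here pairs their IDs with names. Alternatives were other sources of spread, RLE factors, no filter, DESeq2 1.42.0, limma 3.58.1 (voom), a replicate block and leaving out each library.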

Additional observations from a re-analysis of the deposited data

Results flagged for a closer look

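A difference between the cultivars in the response to the first day of cold, tested as an interaction term with edgeR, was called for 635 genes. Among the named features it was 4.87 log2 units for Bra013205 and 4.62 for Bra000122, LP08 minus Chiifu, and -3.38 for Bra025660 and -3.37 for Bra022618. For Bra022976 it was 2.42, where both cultivars fell and Chiifu fell further. For VIN3 (Bra020445) the adjusted p was 0.0138 (edgeR), with all LP08 NV libraries at 0 counts. No cause of these differences was tested.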

How the results depend on the processing

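Against 6780 genes called in Chiifu, a spread taken from all 30 libraries gave 14401 and one from the 15 Chiifu libraries 13060, RLE factors gave 6741, no filter 6461, DESeq2 8891 and voom 6267. Leaving out 1 library gave 2570 to 11105. For the difference between cultivars (635), the spread of all 30 libraries gave 2646, DESeq2 1709, voom 343 and a replicate block 415, and leaving out 1 library gave 185 to 1698. Shared rises (2472) and falls (2644) became 3991 and 4290 with the spread of all 30 libraries and 4192 and 4077 with that of each cultivar, and ranged over 1149 to 4082 and 1025 to 3718 with 1 library left out. Opposite calls (81) were 244, 237 and 132 with the spread of all 30 libraries, that of each cultivar and DESeq2. The genes near 0 in NV or V1 (51 and 145) were 12 and 50 at exactly 0 counts. Bra022618 reversed in Chiifu, from -0.20 to 0.033 without NV replicate 3 (-0.33 to 0.033 with 1 library left out). The cause of these shifts was not tested.

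Replicate numbers recur in both groups. Deviations of same-numbered libraries correlated at 0.0395, 0.0358 and 0.144, and NV replicate 1 correlated best with V1 replicate 2 (0.156), so the numbers were not taken as pairs. With the replicate number as a block, 4927 genes were called, among them 4776 of the 6780. The SDs of NV replicates 1, 2 and 3 were 0.69, 0.67 and 0.81 with a prior count of 0.5 and 0.51, 0.47 and 0.66 for genes of at least 10 CPM, so NV stayed wider than V1 (at most 0.40 and 0.21). Depth limits the lowest levels: 1641 of the genes tested lay under 1 CPM.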
